A study of Mus musculus with 26 samples.

Results

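The elastic fiber genes described here are 10 of the 16426 genes measured in single cells of the mouse retinal pigment epithelium (RPE) and choroid. They were taken by name and not by a rule on measured values, but earlier results of these data were known. Eln encodes tropoelastin, the soluble precursor of elastin. Fbn1 and Fbn2 encode the fibrillins, and Fbln1, Fbln2, Fbln5, Efemp1 and Efemp2 encode fibulins. Ltbp4 encodes a latent TGF-beta binding protein, and Lox encodes lysyl oxidase. All 10 genes had a row in both scRNAseq tables, and 9 of them had a row in the bulk RNAseq tables, in which Fbln1 had no row.

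Elastic fibers consist of a core of elastin laid on a scaffold of fibrillin microfibrils. Tropoelastin is secreted, gathered onto the microfibrils with the help of fibulins and latent TGF-beta binding proteins, and then crosslinked by lysyl oxidases. In the eye, Bruch's membrane, the sheet between the RPE and the capillaries of the choroid, has an elastic layer at its centre, and the walls of choroidal arteries hold elastic laminae.

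Single cells came from 1 library per strain, B6129PF1/J and C57BL/6J, at 3 months of age, and each library pooled an eye of 1 male with an eye of 1 female. Sorted endothelial cells (ECs) from heart, liver, lung and neural retina, with 3 libraries each, came from 1-month-old B6129PF1/J mice, and choroidal ECs appear here only as an average in a table. Bulk RPE/choroid came from 6-month-old C57BL/6J mice that all carried Cdh5-CreERT2, a tamoxifen-inducible Cre driven by an EC promoter, and that all received tamoxifen 12 weeks earlier. Controls were Ihh+/+ (3 libraries), and in the IhhiDEC/iDEC mice (3 libraries) the floxed gene of Indian Hedgehog was deleted in ECs. GLI1+ cells, which respond to Hedgehog (HH), were sorted as GFP+ cells from the pooled RPE/choroid of Gli1GFP/+ females (SWR/J background in the labels, outcrossed to BALB/c in the methods), expanded in culture, starved of serum and exposed for 24 h to 100 nM SAG, an agonist of the HH pathway, or to DMSO, with 3 libraries each. The bulk tables used here give 1 average of normalized fragment density (FPKM) for each group, without an error and without a depth per library.

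The scRNAseq libraries held 3637 and 3928 cells with medians of 3881 and 3174.5 unique molecular identifiers (UMIs) per cell, and the 10 genes took 13695 and 10530 UMIs of 17168578 and 15230413. Of 7565 cell barcodes, 22 occurred in both libraries. Levels below are UMIs of a gene per 10,000 UMIs of a cluster, in the order B6129PF1/J and then C57BL/6J, and brackets hold 95% intervals that cover counting error only. The 13 clusters and their names are those deposited by the study. Both libraries hold fewer cells here than the paper reports. The cell numbers of most clusters differ from the paper's too, with 185 and 158 cells in cluster 7 here. The marker sums of RPE, ECs, smooth muscle, melanocytes, hematopoietic cells and Schwann cells were each highest in a cluster of that name, and stromal markers were highest in stromal cluster 7. The pericyte marker sum was highest in stromal cluster 6, at 102.9 and 102.1 UMIs per 10,000, and reached 94.6 and 101.5 in smooth muscle cluster 9. Clusters were formed from these cells' own expression, and each strain had 1 library, so no test was made between clusters or strains and the values are a description.

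Elastic fiber genes were chiefly stromal, but elastin itself was not. Stromal clusters 5 to 8 held 72.4% (71.6 to 73.1) and 67.7% (66.8 to 68.6) of the UMIs of the 10 genes, against 39.0% and 37.7% of the UMIs of all genes. The share ran from 98.1% and 95.8% for Fbln1 down to 27.96% and 20.96% for Fbln2, and Eln lay second from the bottom, with 36.1% and 31.4%. The 3 EC clusters took most of the rest of Eln and Fbln2. Of the 10 genes, 3 (Eln, Fbln2 and Ltbp4) were highest in EC cluster 4 in both libraries, against 3.47% of the 15299 genes with UMIs in both. Those 15299 include genes with very few UMIs, and no share was computed among genes counted as well as these 10. Fbn1, Fbln5 and Efemp1 had different highest clusters in the 2 libraries.

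**Figure D1:**
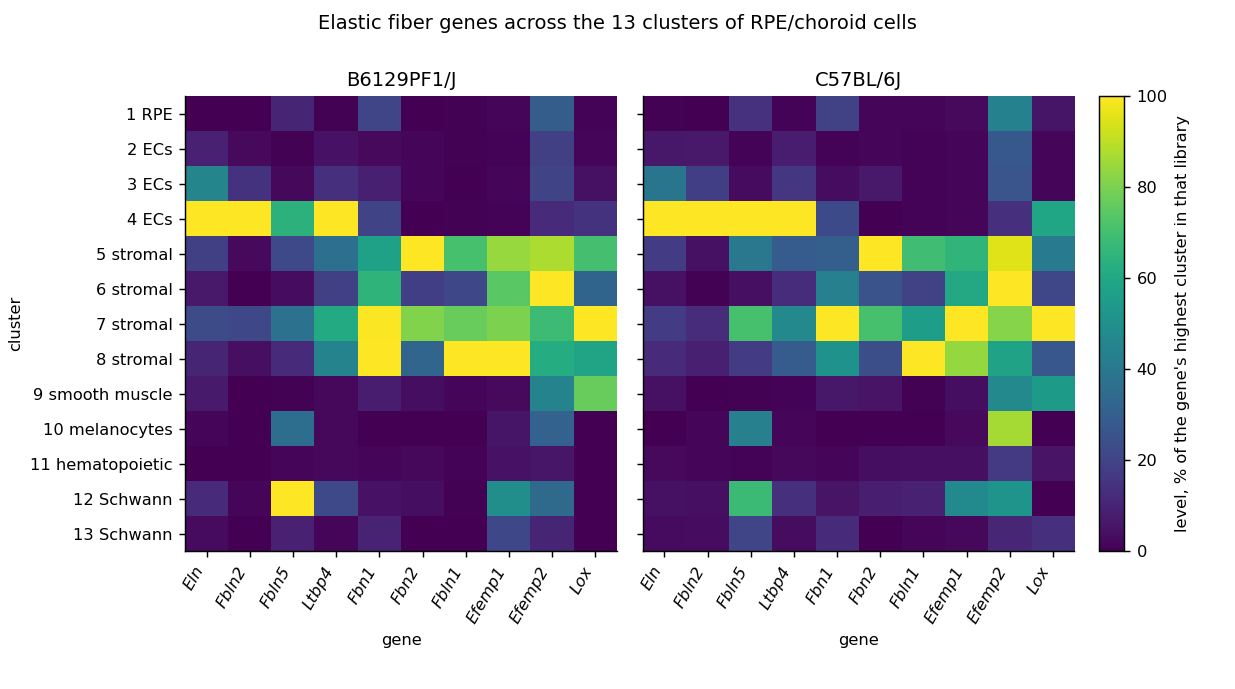
Level of each gene (columns) in each cluster (rows) as a percentage of that gene's highest cluster in the library, with 1 panel per strain. Eln, Fbln2 and Ltbp4 reach 100% in EC cluster 4 in both panels, Fbln5 does so in Schwann cluster 12 in B6129PF1/J and in EC cluster 4 in C57BL/6J, and the other genes peak in stromal clusters 5 to 8.

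**Figure D2:**
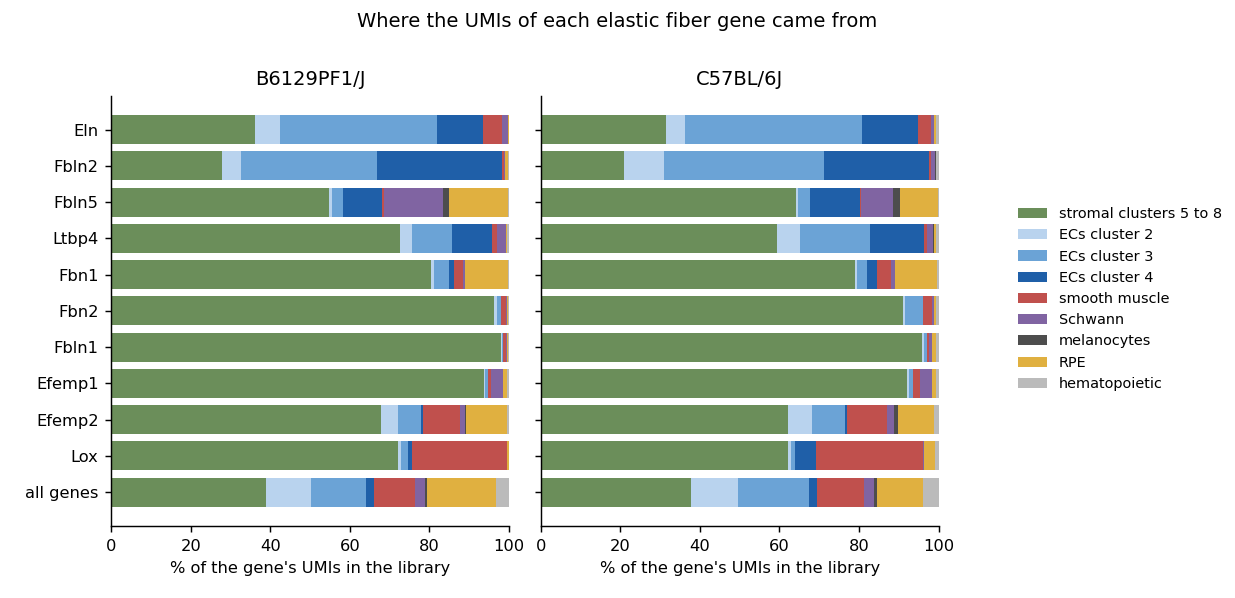
Percentage of each gene's UMIs that came from each class of clusters, as stacked bars with 1 panel per strain and the UMIs of all genes in the lowest bar. Fbln1 is almost wholly stromal (98.1% and 95.8%), whereas EC clusters hold most UMIs of Eln and Fbln2.

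Within the endothelium, the levels of Eln, Fbln2, Fbln5 and Ltbp4 rose from EC cluster 2 to cluster 3 to cluster 4 in both libraries. At lower counts, Fbn1 had the same order. The share of all genes with this order was not computed, and the clusters were formed from the same expression. Fbn1 stood at 0.0472, 0.174 and 0.397 in B6129PF1/J and at 0.0219, 0.0854 and 0.604 in C57BL/6J, with 13 and 20 UMIs in cluster 4. The study orders these clusters by their level of Kdr, a receptor of vascular endothelial growth factor, as high, medium and low, and takes cluster 2 for the choriocapillaris, the capillary bed next to the RPE. Eln, at chr5:134702593-134747323 on the minus strand (GRCm38), stood at 0.562 and 0.372 UMIs per 10,000 in cluster 2, at 2.75 and 2.31 in cluster 3, and at 6.05 (5.24 to 6.95) and 5.92 (5.12 to 6.81) in cluster 4. Fbln2 (chr6:91212455-91272540, plus strand), whose product binds elastin and fibrillin, stood at 0.163 and 0.350 in cluster 2, at 0.928 and 0.961 in cluster 3, and at 6.33 (5.49 to 7.25) and 5.17 (4.42 to 6.00) in cluster 4.

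Among ECs, Fbln5 and Ltbp4 had levels of 0.839 or less outside cluster 4. Their products act together when elastin is deposited on microfibrils. Fbln5 (chr12:101746565-101819055, minus strand) measured 0.063 and 0.038 in cluster 2, 0.186 and 0.126 in cluster 3, and 5.19 (4.44 to 6.04) and 4.41 (3.73 to 5.19) in cluster 4. Ltbp4 (chr7:27305136-27337692, minus strand) measured 0.252 and 0.411, then 0.680 and 0.839, then 5.04 (4.30 to 5.87) and 5.26 (4.51 to 6.10). Most Ltbp4 UMIs were stromal all the same, with 72.7% and 59.5% in stromal clusters 5 to 8 and 10.1% and 13.5% in EC cluster 4. In stromal cluster 7 its level was 3.09 and 2.47. For Eln, Fbln2, Fbln5 and Ltbp4, the intervals of clusters 2, 3 and 4 did not overlap within either library. How many of all genes were separated in this way was not computed. Smooth muscle cells, which make elastin in arterial walls during growth, had little of these 4 genes in cluster 9, with Eln at 0.445 and 0.273 and the other genes at 0.107 or less.

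**Figure D3:**
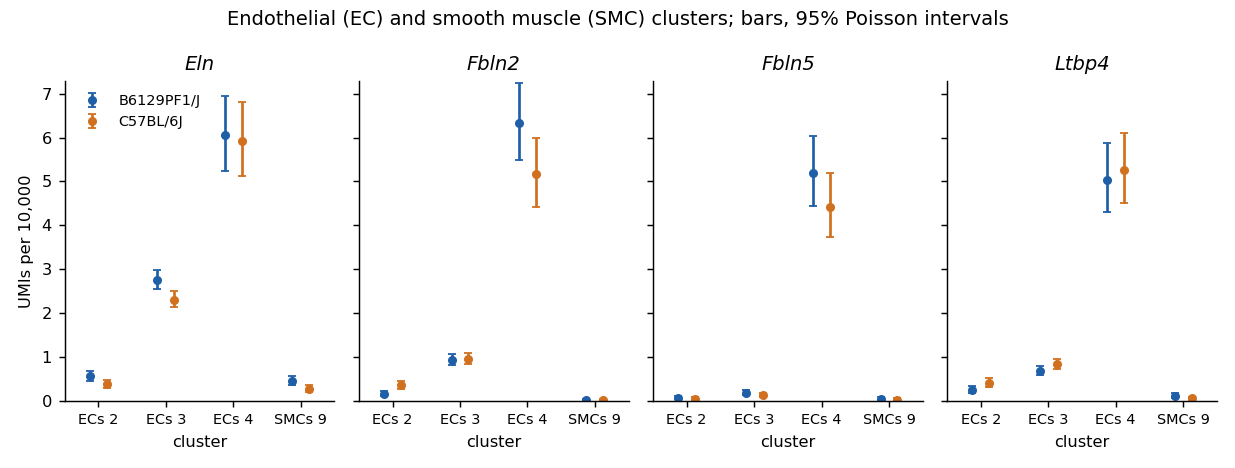
UMIs per 10,000 of Eln, Fbln2, Fbln5 and Ltbp4 in EC clusters 2, 3 and 4 and smooth muscle cluster 9, as points for each library with exact 95% Poisson intervals. All 4 genes are highest in cluster 4, where their levels lie between 4.41 and 6.33, and Eln alone has a level above 2 in cluster 3.

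Promoter windows of 3 genes that were highest in cluster 4 in at least 1 library are shown because the levels of these genes had the same order across EC clusters. RefSeq windows of GRCm38.p6, from 250 bases before to 50 after a start, were matched by symbol for 7 of the 10 genes, and the most upstream one is printed for Fbln2 (chr6:91212514-91212813, plus strand), Fbln5 (chr12:101819070-101819369, minus strand) and Ltbp4 (chr7:27337563-27337862, minus strand). The windows matched do not include Eln. Letters run 5′ to 3′ on the strand of the gene, and capitals mark GC boxes, GGGCGG or CCGCCC.
Fbln2: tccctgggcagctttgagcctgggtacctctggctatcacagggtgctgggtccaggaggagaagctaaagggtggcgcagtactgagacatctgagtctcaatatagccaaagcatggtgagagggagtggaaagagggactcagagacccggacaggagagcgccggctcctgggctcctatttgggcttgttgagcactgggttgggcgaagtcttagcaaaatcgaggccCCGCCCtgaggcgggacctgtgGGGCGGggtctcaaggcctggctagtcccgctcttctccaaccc
Fbln5: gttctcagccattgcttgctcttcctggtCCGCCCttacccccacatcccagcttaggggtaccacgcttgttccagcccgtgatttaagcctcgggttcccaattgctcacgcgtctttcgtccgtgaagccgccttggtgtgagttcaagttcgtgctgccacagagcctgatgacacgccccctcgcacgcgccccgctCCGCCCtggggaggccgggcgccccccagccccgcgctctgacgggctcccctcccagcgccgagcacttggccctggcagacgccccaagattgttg
Ltbp4: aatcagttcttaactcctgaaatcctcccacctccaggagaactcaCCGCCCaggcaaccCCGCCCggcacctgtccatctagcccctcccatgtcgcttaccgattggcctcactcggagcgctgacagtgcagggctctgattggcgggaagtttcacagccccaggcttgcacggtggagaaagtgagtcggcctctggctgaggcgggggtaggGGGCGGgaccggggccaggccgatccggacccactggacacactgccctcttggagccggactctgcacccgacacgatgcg
The windows held 2, 2 and 3 GC boxes, and 60.3%, 65.7% and 64.3% of their bases were G or C, against a median of 52.7% over the 32851 windows of all genes. A GC box was in 11 of the 13 windows of the 7 genes and in 35.7% of all windows. Searched on both strands, a TATA box (TATAAA), an ETS-type core (CCGGAA), a forkhead-type motif (TGTTTAC), an AP-1 motif (TGAGTCA) and a GLI motif (GACCACCCA) were in none of the 13, and they were in 13.6%, 14.9%, 3.65%, 5.20% and 0.253% of all windows. A SMAD-type motif (GTCTAG) was in 6 of the 13, which belong to 4 of the 7 genes, and in 8.37% of all windows. None of the 3 printed windows held it. Windows of alternative starts of 1 gene overlap in part, and a match is a run of letters and not a bound site.

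Cells of cluster 4 often held several of Eln, Fbln2, Fbln5 and Ltbp4 at once. After each cell was thinned to 1700 UMIs, UMIs of all 4 genes were found in 9 of 63 cells (14.3%) and in 10 of 72 (13.9%). In cluster 3 the same held for 0 of 430 and 1 of 549 cells, and in cluster 2 for 0 of 370 and 0 of 403. None of the 4 genes was seen in 84.3% and 85.1% of the cells of cluster 2, against 7.94% and 12.5% of those of cluster 4. The 4 genes were taken for their high levels in cluster 4, so more joint detection there follows from those levels. No joint share expected from the single genes was computed.

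Detection per cell followed the same order. Without thinning, Fbln2 was seen in 84.1% (72.7 to 92.1) and 81.9% (71.1 to 90.0) of cells of cluster 4, whose median depths were 3915 and 2954 UMIs. Hematopoietic cluster 11, which should lack these genes, had deeper cells, with medians of 5047.5 and 3977 UMIs, and there the shares were 0.943% and 2.36%. Eln was seen in 71.4% and 59.7% of the cells of cluster 4 and in 0% and 4.72% of hematopoietic cells, of which the first was 0 of 106 cells and allows a share of cells with a UMI of up to 2.83% by the limit of 3 counts. Thinned to 1700 UMIs, Eln was left in 47.6% and 45.8% of the cells of cluster 4, in 37.7% and 31.9% of those of cluster 3 and in 7.84% and 5.96% of those of cluster 2. In smooth muscle the thinned share, 5.63% and 3.67%, lay below that of cluster 2.

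Cluster 4 cells with an Eln UMI had higher levels of Ltbp4 than those without, with overlapping intervals in B6129PF1/J and separate ones in C57BL/6J. Ltbp4 measured 5.58 (4.69 to 6.60) against 3.43 (2.28 to 4.96) in B6129PF1/J and 6.24 (5.27 to 7.33) against 2.84 (1.87 to 4.14) in C57BL/6J. The other 9 genes together measured 18.5 (16.8 to 20.3) against 13.8 (11.4 to 16.6) and 18.03 (16.35 to 19.8) against 11.5 (9.43 to 13.9). Fbln2 was at 7.05 against 4.17 in B6129PF1/J but at 5.09 against 5.37 in C57BL/6J, so it did not follow Eln in both libraries. Fbln5 was at 5.255 against 5.02 in B6129PF1/J, which overlapped, and at 5.26 (4.375 to 6.27) against 2.32 (1.45 to 3.51) in C57BL/6J. The summed arterial genes Gja4, Gja5, Bmx, Sema3g, Hey1 and Efnb2 measured 15.6 (14.04 to 17.2) against 11.6 (9.42 to 14.23) in B6129PF1/J. In C57BL/6J they measured 14.2 (12.7 to 15.8) against 11.5 (9.43 to 13.9). These intervals overlapped in both libraries, and Hey1 was lower with Eln in C57BL/6J, at 2.33 against 2.53. The summed venous genes (Nr2f2, Ackr1, Vwf, Selp and Ephb4) measured 5.87 (4.95 to 6.91) against 2.82 (1.79 to 4.23) in B6129PF1/J. In C57BL/6J they measured 4.20 (3.41 to 5.11) against 2.84 (1.87 to 4.14), which overlapped. Of these, Vwf was at 4.89 (4.05 to 5.85) against 1.47 (0.760 to 2.57) in B6129PF1/J and at 2.93 against 2.00 in C57BL/6J. Ephb4 was lower with Eln in both, at 0.815 against 1.10 and 0.636 against 0.737. Cells with an Eln UMI were deeper, with medians of 3928 against 3681 and 3026 against 2569 UMIs, and the part of depth in these differences was not tested.

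In cluster 3, the venous sum was again higher with Eln, whereas the arterial sum was lower. There the summed venous genes (Nr2f2, Ackr1, Vwf, Selp and Ephb4) measured 7.51 (7.09 to 7.95) against 4.92 (4.45 to 5.43) and 5.13 (4.78 to 5.49) against 4.11 (3.74 to 4.50), and the arterial sum was lower with Eln, at 2.62 against 3.72, and at 2.45 (2.21 to 2.70) against 2.87 (2.56 to 3.20), which overlapped. Vwf carried most of the venous sum, at 4.78 against 2.96 and 3.36 against 2.45, and its members did not all go one way. Selp was at 0.369 against 0.417 and 0.266 against 0.279, and Nr2f2 was at 1.09 against 0.540 in B6129PF1/J but at 0.544 against 0.585 in C57BL/6J. Fbln2, Fbln5 and Ltbp4 had overlapping intervals in both kinds of cell. Summed pericyte genes were higher with Eln in B6129PF1/J, at 7.16 against 3.08, and less so in C57BL/6J, at 4.25 against 3.98, which overlapped. Rgs5 carried most of this sum, at 6.33 against 2.528 and 3.616 against 3.498. Kcnj8 and Higd1b were higher with Eln in both libraries. Abcc9 was lower with Eln in B6129PF1/J, at 0.1753 against 0.1963, and Notch3 in C57BL/6J, at 0.1517 against 0.1709. Summed contractile genes were higher with Eln in C57BL/6J, at 1.43 against 0.621, but not in B6129PF1/J, at 0.319 against 0.356. Cells with Eln were also deeper in cluster 3, with medians of 4602 against 3680 and 3606 against 3271 UMIs. The part of RNA from other cells and of depth in these values was not tested.

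The stromal clusters led for Fbln1, Efemp1, Efemp2, Fbn1, Lox and Fbn2. Fbln1 (chr15:85205949-85286535, plus strand), a fibulin of basement membranes and elastic fibers, was highest in cluster 8, at 5.65 (5.08 to 6.26) and 5.23 (4.61 to 5.92), followed in B6129PF1/J by 4.34 in cluster 7 and 4.01 in cluster 5 and in C57BL/6J by 3.64 in cluster 5 and 2.91 in cluster 7. Cluster 6 had the least of the stromal clusters, 1.21 and 1.01. Among cells of cluster 8 with UMIs of Xist or of Y-linked genes alone, 125 and 126 were female and only 13 and 9 male. Fbln1 measured 5.53 (4.90 to 6.22) in the female and 4.06 (2.48 to 6.27) in the male cells of B6129PF1/J. In C57BL/6J these values were 4.46 (3.80 to 5.20) and 9.40 (6.43 to 13.3), so the level of cluster 8 rests mostly on 1 mouse per library. In ECs, smooth muscle and RPE, Fbln1 stayed at 0.0958 or less.

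Efemp1 encodes fibulin-3, known for an inherited form of drusen under the RPE. The gene (chr11:28853204-28926743, plus strand) measured 2.89 to 3.89 across the stromal clusters of B6129PF1/J and 2.48 to 4.10 across those of C57BL/6J. Its highest cluster was 8 in B6129PF1/J and 7 in C57BL/6J, and the intervals of clusters 7 and 8 overlapped in both libraries. Schwann cluster 12 also had 1.93 and 1.94, whereas RPE had only 0.0733 and 0.109.

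Efemp2 encodes fibulin-4, which brings lysyl oxidase to tropoelastin. The gene was highest in cluster 6, at 1.79 and 1.56, and reached 0.80 and 0.737 in smooth muscle and 0.527 and 0.686 in RPE. The gene lies at chr19:5473954-5482517 on the plus strand. The stromal share of its UMIs was 67.8% and 62.2%.

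Fbn1, the main fibrillin of adult tissue (chr2:125300594-125507993, minus strand), measured 1.93 (1.65 to 2.25) and 2.69 (2.29 to 3.14) in cluster 7 and 1.95 (1.62 to 2.32) and 1.38 (1.07 to 1.76) in cluster 8. The intervals of these clusters overlapped in B6129PF1/J but not in C57BL/6J. RPE had 0.403 and 0.521, above its level in EC clusters 2 and 3.

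Lox, whose product crosslinks elastin and collagen, had few UMIs in any cluster. Its levels were highest in cluster 7, at 0.624 (0.468 to 0.816) and 0.613 (0.429 to 0.848). Smooth muscle followed in B6129PF1/J with 0.479, and in C57BL/6J cluster 4 had 0.363 and smooth muscle 0.335. Cluster 7 also held the few UMIs of cartilage markers, whose sum was 2.26 and 1.04 there and 0.0316 and 0.0628 in the next cluster, and the part of such cells in the levels of cluster 7 was not tested. Lox lies at chr18:52516067-52529867 on the minus strand.

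Fbn2, a fibrillin best known from developing tissue (chr18:58008623-58210487, minus strand), was among the most stromal of the 10 genes. Stromal clusters held 96.2% (93.9 to 97.8) and 91.1% (85.97 to 94.8) of its UMIs, with the highest level in cluster 5, at 0.916 (0.814 to 1.03) and 0.433 (0.359 to 0.518). No Fbn2 UMI was found in EC cluster 4 of either library, which allows up to 0.0917 and 0.0907 per 10,000 UMIs, and clusters 2 and 3 had 0.0297 or less. In stromal cells with a UMI of Gli1, Ptch1 or Hhip, which are targets of HH, Fbn2 measured 0.686 (0.573 to 0.815) against 0.579 (0.513 to 0.651) in the other stromal cells of B6129PF1/J, and 0.329 (0.233 to 0.451) against 0.275 (0.229 to 0.328) in those of C57BL/6J. These intervals overlapped.

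Stromal clusters 5 to 8 held 54.85% and 64.1% of the UMIs of Fbln5, and Schwann cells held 14.9% and 8.03%. In Schwann cluster 12 Fbln5 measured 8.07 (7.10 to 9.14) and 3.01 (2.39 to 3.73). In C57BL/6J this level lay below those of EC cluster 4 and stromal cluster 7, with overlapping intervals. Fbln5 was seen in 75.9% and 47.2% of the cells of cluster 12 at median depths of 2517 and 2299 UMIs, against 3.77% and 2.36% of hematopoietic cells. Schwann cluster 13, with 30 and 46 cells, had 0.744 and 0.918. Melanocytes had 2.93 and 1.93 in only 16 and 26 cells, stromal cluster 7 had 3.03 and 3.13, and RPE had 0.837 and 0.624.

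Between the strains, 2 of the 10 genes differed by more than 1.5-fold in their highest cluster, Fbn2 and Fbln5, both higher in B6129PF1/J. Where the libraries had different highest clusters, as for Fbn1, Fbln5 and Efemp1, the cluster was the highest of both libraries together. Fbn2 in cluster 5 was 2.12-fold (1.70 to 2.64) higher, and the ratio was 1.55, 2.42 and 2.87 in clusters 6, 7 and 8. Fbln5 in cluster 12 was 2.68-fold (2.08 to 3.49) higher, but this cluster was its highest through B6129PF1/J, and in cluster 4, its highest in C57BL/6J, the ratio was 1.18 (0.938 to 1.48) and did not pass. Of the genes with at least 20 UMIs, the share past 1.5-fold in either direction was 13.9% in cluster 5, 23.8% in cluster 12, 22.6% in cluster 4, 15.8% in cluster 6, 22.1% in cluster 7 and 23.8% in cluster 8, so a share of 2 of 10 genes lay within the range of these backgrounds. Strain, mouse and library cannot be told apart.

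The other 8 ratios lay between 0.718 and 1.22. The ratio of Eln in cluster 4 was 1.02 (0.834 to 1.251), that of Ltbp4 was 0.959 (0.770 to 1.19), and that of Fbln2 was 1.22 (0.995 to 1.51). Fbn1 in cluster 7 was at 0.718 (0.574 to 0.899), lower in B6129PF1/J, but at 0.903 when each cell was thinned to 1700 UMIs. In clusters 8 and 5 the ratio of Fbn1 ran the other way, at 1.41 (1.04 to 1.93) and 1.36 (1.15 to 1.62). Efemp1 was likewise at 1.13 (0.921 to 1.38) in cluster 8 and at 0.761 (0.637 to 0.910) in cluster 7, its highest in C57BL/6J.

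**Figure D4:**
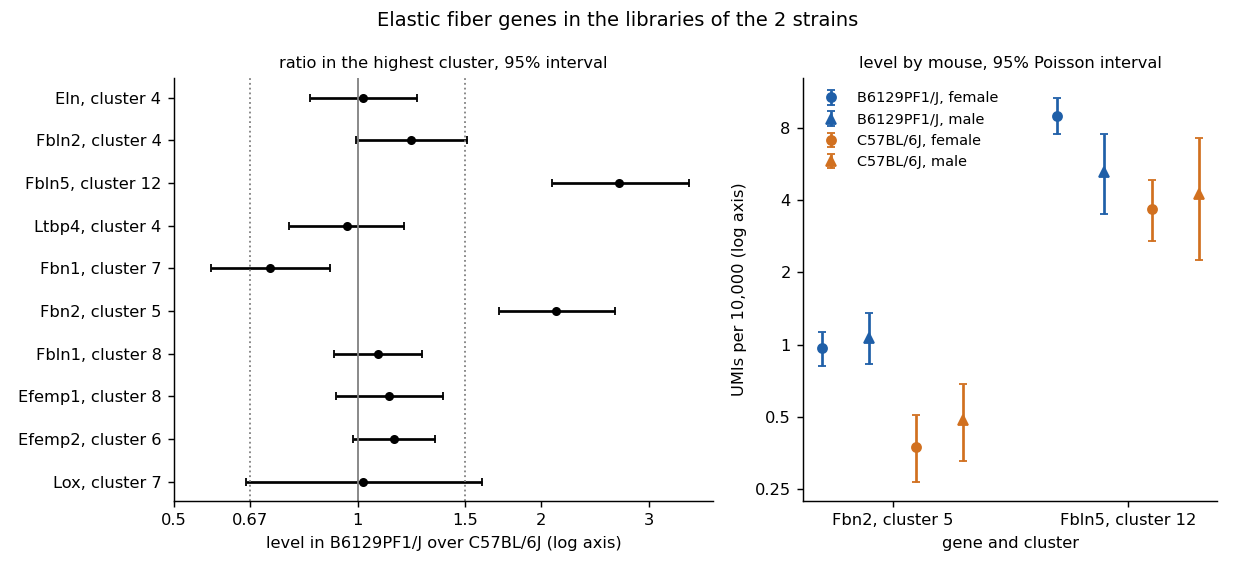
Left, ratio of the level in B6129PF1/J to that in C57BL/6J in each gene's highest cluster with its 95% interval on a log axis, where dotted lines mark 1.5-fold. Right, level of Fbn2 in cluster 5 and Fbln5 in cluster 12 by mouse with 95% Poisson intervals on a log axis. Both B6129PF1/J mice lie above both C57BL/6J mice for Fbn2, and for Fbln5 the B6129PF1/J female lies above the other mice.

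Cells could be given to the male or the female of a library where they held UMIs of Y-linked genes or of Xist alone. Fbn2 in cluster 5 measured 0.964 in the female and 1.07 in the male of B6129PF1/J, and 0.375 and 0.484 in those of C57BL/6J, so the mice of a library lay close together and the libraries did not overlap. Fbln5 in cluster 12 measured 8.97 (7.50 to 10.7) and 5.24 (3.51 to 7.52) in B6129PF1/J, and 3.66 (2.70 to 4.85) and 4.23 (2.25 to 7.23) in C57BL/6J. The male of B6129PF1/J overlapped both C57BL/6J mice, and the male values rest on 16 and 11 cells.

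Eln showed how far single mice could differ. In cluster 3 it measured 2.20 and 3.31 in the female and male of B6129PF1/J but 2.79 and 1.17 in those of C57BL/6J, and the direction between the sexes was opposite in the libraries. In cluster 4 it measured 7.25 and 4.02, and 5.74 and 6.63. Sex and mouse cannot be told apart within a library.

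In RPE/choroid tissue, deletion of Ihh in ECs went with an average of Fbn2 that was lower by more than 1.5-fold, and no other gene of the 9 measured passed this limit. The check genes had averages of 1.53 FPKM in Ihh+/+ and 0.454 in IhhiDEC/iDEC for Ihh, 9.40 and 3.15 for Gli1, 7.69 and 4.98 for Ptch1 and 1.05 and 0.346 for Hhip. Fbn2 had an average of 1.17 FPKM in Ihh+/+ and 0.568 in IhhiDEC/iDEC, a log2 ratio of -1.05. A ratio as low was found in 77 of the 11411 genes that reached 1 FPKM in their higher group. With a pseudocount of 1 FPKM the log2 ratio was -0.47, which did not pass. By the rule of 1.5-fold, 1 of 9 genes was lower and 0 of 9 were higher, against 2.53% lower and 2.17% higher among all genes.

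The other genes stayed close to their control averages. Eln was at 13.1 FPKM in Ihh+/+ and 14.4 in IhhiDEC/iDEC, Fbn1 at 9.19 and 9.88, and Lox at 3.49 and 3.64. Among the fibulins, Fbln2 was at 7.58 and 6.55, Fbln5 at 15.5 and 14.4, Efemp1 at 16.3 and 16.7 and Efemp2 at 29.7 and 28.8. Ltbp4 had the highest average of the 9, 48.8 FPKM, and 40.7 after deletion. The median log2 ratio of the 9 genes was -0.04, as was that of all genes.

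Averages of bulk tissue cannot tell fewer cells of a type from less RNA per cell. The summed stromal markers (Pdgfra, Pdgfrb, Col1a1, Col1a2, Dcn and Lum) were at 0.641 of the control, with 4 of 6 lower by 1.5-fold. The sums of ECs, smooth muscle and pericytes were at 0.871, 0.896 and 0.836, melanocytes at 0.642, mast cells at 0.557, photoreceptors at 0.356, cartilage markers at 0.763, Schwann cells at 0.991, hematopoietic cells at 1.10, RPE at 1.19 and Muller glia at 1.29. Efemp1, with over 91% of its UMIs in stromal clusters, had a ratio of 1.03, against 0.484 for Fbn2. The part of tissue composition in the Fbn2 value was not tested.

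**Figure D5:**
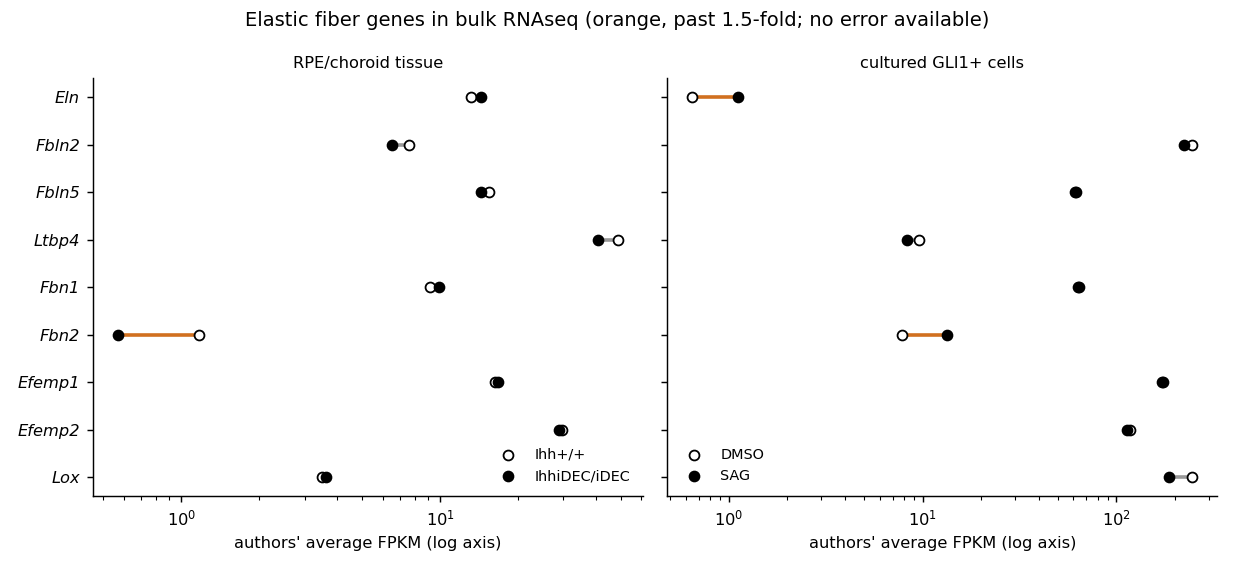
Average FPKM of the 9 genes on log axes, in RPE/choroid of Ihh+/+ (open) and IhhiDEC/iDEC mice (filled), and in cultured GLI1+ cells with DMSO (open) and SAG (filled), with orange lines past 1.5-fold. Fbn2 is lower after the deletion (1.17 to 0.568) and higher with SAG (7.85 to 13.4), and Eln is higher with SAG (0.646 to 1.11) from the lowest average of the 9.

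In cultured GLI1+ cells, SAG went with higher averages of Fbn2 and Eln. Fbn2 was at 7.85 FPKM with DMSO and 13.4 with SAG, a log2 ratio of 0.78, and Eln at 0.646 and 1.11, a log2 ratio of 0.79. Ratios as high were found in 75 and 70 of 10325 genes. With a pseudocount of 1 FPKM the log2 ratio of Eln was 0.36, which did not pass. Gli1 went from 0.028 to 3.65 FPKM, Ptch1 from 1.13 to 10.1 and Hhip from 0.368 to 1.28. By the same rule 2 of 9 genes were higher and 0 of 9 lower, against 1.38% and 2.45% of all genes.

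The order of the 9 genes by FPKM in culture differed from that in tissue, and the tables were scaled separately. Eln, at 13.1 FPKM in control tissue, was at 0.646 in cultured cells, whereas Lox was at 245 FPKM with DMSO and 188 with SAG, and Fbln2 at 247 and 225. Fbln2 and Lox were thus the highest of the 9 in culture, where the EC markers were near 0 and summed to 0.282 and 0.443 FPKM. Efemp1 was at 175 and 171 FPKM, Efemp2 at 118 and 114, Fbn1 at 63.9 and 63.6, Fbln5 at 61.0 and 61.9, and Ltbp4 at 9.62 and 8.34. None of these passed 1.5-fold, and Lox came nearest, with a log2 ratio of -0.38. The stromal marker sum was at 0.900 of the DMSO value and the smooth muscle sum at 1.03. The median log2 ratio was -0.03 for the 9 genes and 0.06 for all genes.

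Fbn2 was the only gene of the 9 past 1.5-fold in both comparisons, in opposite directions. Of 9700 genes with at least 1 FPKM in both tables, 140 were lower after the deletion and 121 higher with SAG, and 17 were both, which is 12.1% of the first list and 14.05% of the second. The 17 hold Gli1, Ptch1 and Hhip.

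Fbn2 was also the only one of the 10 in the study's list of 99 genes enriched in choroidal ECs, which the authors selected for a high ratio to other ECs. It had averages of 1.07 FPKM in choroidal ECs, 0.020 in neural retina, 0.036 in lung and 0.053 in heart ECs and was listed at 0 in liver ECs, and no other gene of the list had a lower average in choroid. In single cells, Fbn2 had 0.0297 UMIs per 10,000 or less in the EC clusters and up to 0.916 in the stromal clusters.

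The other genes of elastic fibers were described by a list of 40, of which 38 had UMIs in both libraries. Of these, 8 were highest in stromal cluster 7 in both libraries, against 2.94% of the 15299 genes with UMIs in both. The level of 1 of the 8, Hmcn2, rests on 2 UMIs in cluster 7 of C57BL/6J. Among microfibril-associated genes, Mfap5 in cluster 7 had 9.83 and 13.4 UMIs per 10,000, Mfap2 in cluster 5 had 2.91 and 4.004, and Mfap4 in cluster 8 had 6.15 and 3.96. Loxl1, a lysyl oxidase of elastin, had 2.81 and 3.34 in cluster 7, and the metalloproteinase Mmp2 had its highest levels of 3.23 in cluster 7 of B6129PF1/J and 3.18 in cluster 8 of C57BL/6J.

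ECs, RPE and hematopoietic cells led for other roles. Timp3, an inhibitor of metalloproteinases held in Bruch's membrane, was highest in EC cluster 2, at 59.2 and 49.8, together with Tgfb1, at 2.58 and 3.28, and Adamtsl2, at 0.934 and 0.679. EC cluster 4 led for Tgfb2, at 1.99 and 1.78, and Gas6, at 4.25 and 3.90. Smooth muscle led for Ltbp1, at 1.03 and 0.731, RPE for the integrin Itgav, at 2.59 and 3.45, and hematopoietic cells for the elastin-degrading protease Ctss, at 17.8 and 25.6.

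In the bulk comparisons few of these genes passed 1.5-fold. After Ihh deletion 0 of 35 were higher and 1 was lower, Serpine2, a protease inhibitor highest in stromal cluster 5, with averages of 138.7 and 89.8 FPKM. Among all genes 2.53% were lower, and the ratio of 0.648 of Serpine2 lay beside that of 0.641 of the stromal marker sum, whose part in it was not tested. With SAG 2 of 32 were higher and 0 lower, where 1.38% of all genes were higher. They were Fbln7, a fibulin, with averages of 1.04 and 1.64, and Timp3, with 153.5 and 269.6. The median log2 ratios were 0.00 and -0.04.

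Across the 26 levels of 13 clusters in 2 libraries, the genes most like each elastic fiber gene were read from Pearson's r of log2 levels over 9664 genes, as a description whose points share libraries and depth. Eln was most like Tmem44 (0.892), Hs3st1 (0.889) and Foxq1 (0.879), and Fbln2 like Spock2 (0.901), Nhsl2 (0.895) and Hs3st1 (0.891). Ltbp4 was nearest to Cgnl1 (0.923), Emp1 (0.889) and Krtcap2 (0.860). Hs3st1, a sulfotransferase of heparan sulfate, was thus on the lists of both Eln and Fbln2. Fbln5 had the loosest neighbours, Eva1c (0.781), Bpgm (0.764) and Tst (0.748).

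Fbln1, Fbn2 and Efemp1 had the closest neighbours of the 10 genes. Fbln1 was most like Srpx (0.976), Pdgfrl (0.963) and Tmem45a (0.961), Fbn2 like Tpbg (0.964), Mrc2 (0.945) and Wisp1 (0.939), and Efemp1 like E130114P18Rik (0.956), Col3a1 (0.952) and Aldh1a1 (0.942). Fbn1 was most like Gli1 (0.865), the target of HH, followed by Ctxn3 (0.862) and Tmem45a (0.858). Within the stromal clusters, Fbn1 was not higher in cells with a UMI of Gli1, Ptch1 or Hhip. It measured 1.277 against 1.365 in the other stromal cells of B6129PF1/J and 1.115 against 1.188 in those of C57BL/6J, with overlapping intervals. Efemp2 was nearest to Dtx3 (0.922), Evc (0.900) and Thnsl2 (0.896), and the genes most like Lox included Tmeff2 (0.844) and A4galt (0.838). Among the 10 genes, the closest pairs were Fbn2 and Fbln1 (0.895), Fbln1 and Efemp1 (0.859), Eln and Fbln2 (0.856) and Eln and Ltbp4 (0.837).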

How the data were processed

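Single cells of RPE/choroid (1 library per strain) and bulk RNAseq of tissue and cultured cells were used. For scRNAseq, the authors ran Cell Ranger on mm10, removed shallow cells (under 1700 UMIs) and clustered the cells with Seurat 2.1. The deposited tables hold raw UMI counts per gene and cell, the cluster of each cell as another column, the mitochondrial fraction of each cell, and averages per cluster on a natural log scale. The deposited bulk tables hold FPKM averaged by the authors over the libraries of a group (STAR 2.4.0f1, SAMtools 0.1.19, Cufflinks 2.0.2). They also hold the authors' log2 fold changes and adjusted p-values from DESeq2 on HTSeq counts, which were not used. Doublets were not called anew. Barcodes with UMIs of both Xist and a Y-linked gene numbered 46 and 45.

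UMIs were summed per cluster and library with Python 3.11.15, numpy 2.4.6, pandas 2.3.3 and scipy 1.17.1. Intervals are exact Poisson for levels, Clopper-Pearson for shares and conditional binomial for ratios, at 95%. Strain ratios needed 20 UMIs over both libraries, and bulk ratios needed 1 FPKM in the higher group. A fold of 1.5 was the limit. A share of 0 was limited by 3 counts. Likeness was Pearson's r of log2(UMIs per 10,000 + 0.1) among genes with at least 100 UMIs in each library. The scripts were tested on simulated data. No test was made, because each strain had 1 library and bulk values were averages. Depth per bulk library is unknown.

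The members and lists were chosen with earlier results of these data known. Genes named are the 10 elastic fiber genes, listed elastic fiber genes past 1.5-fold in a bulk comparison or highest for their role, the HH checks Ihh, Gli1, Ptch1 and Hhip, and the 3 genes most like each of the 10, of which 1 is not reported here. The split of stromal cells by HH targets was added after the data were seen. Alternatives were other averaging, thinning, barcodes left out, pseudocounts, scaling and folds. Promoters were RefSeq windows of GRCm38.p6, and gene positions came from GENCODE on GRCm38.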

Additional observations from a re-analysis of the deposited data

How the results depend on the processing

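The stromal share of the UMIs of the 10 genes rose to 76.3% and 72.4% as a mean over cells of UMIs per 10,000, and to 76.2% and 72.4% with each cell thinned to 1700 UMIs. With a pseudocount of 1 FPKM, 0 genes passed 1.5-fold after Ihh deletion (Fbn2 at a log2 ratio of -0.47) and 1 gene passed with SAG (Eln at 0.36 did not). At a fold of 2, 0 genes passed with SAG. The number of genes past 1.5-fold between strains was 2 under every alternative run. Genes with the same highest cluster in both libraries numbered 7, but 6 with each cell thinned to 1700 UMIs and 8 by the authors' averages. Over all genes this was counted for each cluster singly. The share of 15299 genes highest in the same cluster in both libraries ran from 1.255% for cluster 8 to 6.543% for cluster 11. The total over clusters, which would be the background of this count, was not computed. Of the strain ratios of single genes, 48 recomputed values stayed within the counting interval, 2 moved and 0 reversed. Of the bulk log2 ratios, which have no error, 52 stayed on their side of 1.5-fold, 2 did not and 0 reversed. Leaving out barcodes found in both libraries, or the cell richest in a gene, was chosen after seeing the data. No paired analysis was possible because the bulk tables hold 1 average per group and each strain has 1 library, and for the same reason no replicate could be left out.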
